A study of Bos indicus with 12 samples.

Results

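The nuclear genes for subunits of the 5 oxidative phosphorylation complexes were followed in blood RNA of 12 Bos indicus cows. Members were chosen by gene symbol alone: NDUFA, NDUFB, NDUFC, NDUFS or NDUFV with a number for complex I, SDHA to SDHD for complex II, UQCR genes and CYC1 for complex III, COX4 to COX8 followed by A, B or C for complex IV, and ATP5F1, ATP5M and ATP5P genes for complex V. The rule named 83 genes, of which 74 were measured among 26229 gene identifiers, namely 33 in complex I, 2 in complex II, 9 in complex III, 14 in complex IV and 16 in complex V. NDUFA4 was counted in complex IV, where it is now placed. The other 9, NDUFA1, NDUFA10, NDUFB11, NDUFS6, SDHA, SDHD, COX7B, COX8C and ATP5MF, were not analysed here, so complex II stood for 2 of its 4 subunits only. A filter on low counts kept 71 of the 74. The 3 under it were NDUFA4L2, at 0 to 0.326 normalised counts (CPM), COX6B2, at 0 to 0.343 CPM, and COX7B2, at 0 in every library but 1. COX4I1 and NDUFAB1 fall outside the naming rule.

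The cows were female, of the Gir or the Shweta Kapila breed, in lactation 2 or 3. Lactation records put 3 cows of each breed in a high-yielding and 3 in a low-yielding class, which gave 4 groups of 3 with no other treatment named. Nothing used here gives the yields, the ages or the stage of lactation at sampling, and a yield class applies only within its breed. The labels give blood as the tissue and PBMC (peripheral blood mononuclear cells) as the cell type, while RNA was extracted with the PAXgene Blood RNA kit, a kit made for whole blood.

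Oxidative phosphorylation is the step in mitochondria that turns the energy of NADH and succinate into ATP. Complexes I and II pass electrons to ubiquinone, complex III passes them on to cytochrome c, and complex IV hands them to oxygen. Complexes I, III and IV pump protons across the inner membrane, and the return of these protons through complex V, the ATP synthase, drives ATP synthesis. Complex II is encoded wholly in the nucleus, while the other complexes also hold subunits encoded in mitochondrial DNA, which were not analysed here. In blood, lymphocytes and monocytes draw on these complexes more than neutrophils do.

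Library totals ran from 14.2 to 27.2 mega-counts (M). All 3 libraries of over 22 M were Shweta Kapila cows, namely high 3, low 1 and low 2. These 3 also held 9.00% to 13.1% of their counts on 37 identifiers of 7 or 8 digits that have no name, against 4.54% to 5.57% in the other 3 Shweta Kapila libraries and 6.20% to 8.70% in Gir. Of the neutrophil marker list 8 of 14 genes passed the filter, and their summed level was 1290 to 4244 CPM over the 12 libraries. CSF3R stands in this list and in the monocyte list, so the sum does not by itself show neutrophils. MMP8, CXCR1, S100A12, CAMP, ELANE and FFAR2 of the neutrophil list were not analysed. All 12 T cell markers passed, at a summed 2381 to 5753 CPM. In bulk RNA of this kind, fewer cells of a type and less RNA per cell cannot be told apart. Levels are CPM after TMM scaling (trimmed mean of M values). They are not corrected for transcript length, so levels are compared between cows and not between genes.

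In Shweta Kapila cows the subunit genes of complexes I, III, IV and V had mostly higher values with high yield, and in Gir cows they did not, but no member passed edgeR's quasi-likelihood test in any of 6 comparisons. The fold change of high over low yield was above 0 (log2 scale) for 56 of 71 members in Shweta Kapila, where 48.3% of all 15420 genes tested were above 0. In Gir it was above 0 for 24 of 71, where 47.4% of all genes were. The median log2 fold change of the members was 0.48 in Shweta Kapila and −0.09 in Gir, beside −0.02 for all genes in either breed. By complex, the Shweta Kapila medians were 0.49 for complex I, −0.07 for complex II, 0.64 for complex III, 0.49 for complex IV and 0.35 for complex V. The Gir medians were −0.08, 0.05, −0.12, −0.17 and −0.05 in the same order.

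The mean log2 CPM over the subunit genes of a complex shows which cows carried these values. For complex I it was 5.27, 4.84 and 4.17 in Shweta Kapila high 1, 2 and 3, and 4.01, 4.19 and 4.76 in low 1, 2 and 3. High 1, high 2 and low 3 were the 3 high cows, and high 3, low 1 and low 2 the 3 low ones, so the yield classes overlapped. In Gir the same mean was 4.43, 4.41 and 4.21 with high yield and 4.65, 4.39 and 4.21 with low yield. These 6 cows lay within 0.45 log2 units of each other, against 1.26 in Shweta Kapila. Complex III had the same 3 high and 3 low cows, at 5.77, 5.31 and 4.67 in high-yielding and 4.54, 4.57 and 5.23 in low-yielding Shweta Kapila cows. For complex IV the values were 5.04, 4.57 and 3.80 against 3.93, 3.85 and 4.69. For complex V they were 6.81, 6.32 and 5.60 against 5.59, 5.67 and 6.20. Complex II, with SDHB and SDHC alone, had another order, at 6.92, 6.26 and 6.34 against 6.51, 6.47 and 6.75.

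**Figure D1:**
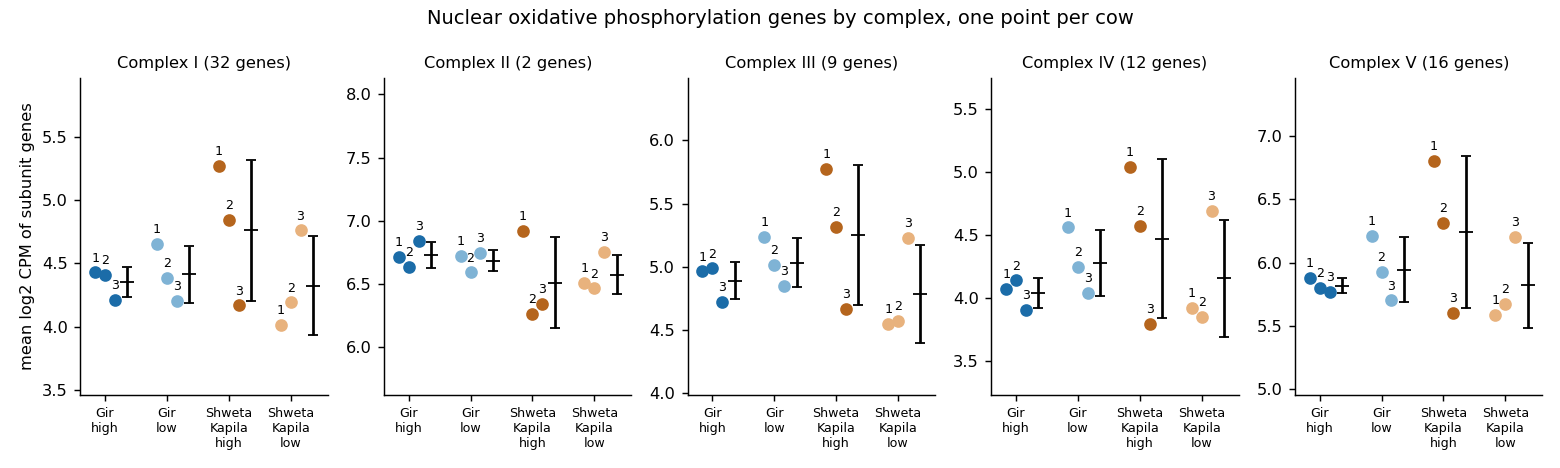
Mean log2 CPM of the subunit genes past the filter, by complex, with 1 numbered point per cow and bars for the mean ± SD of each group of 3 cows; each panel spans the same number of log2 units. Shweta Kapila high 1, high 2 and low 3 sit above high 3, low 1 and low 2 in complexes I, III, IV and V, and the Gir cows lie closer together.

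The 3 low Shweta Kapila cows are the 3 libraries of over 22 M. Of the 71 members, 42 were lower in all 3 of these libraries than in each of the other 3 Shweta Kapila libraries, where 24.6% of all genes were. Only NDUFS1 was higher in all 3, where 21.5% of all genes were. These 3 libraries are 1 of the 3 high-yielding and 2 of the 3 low-yielding cows, so library size and yield class are partly confounded in this breed. Without them, with low 3 as the only low-yielding Shweta Kapila cow left, the median of the members in Shweta Kapila was 0.30. With the percentage of counts on those unnamed identifiers as a covariate it was −0.11. With log2 total count as the covariate, 19 members had an unadjusted p under 0.05 by edgeR's test for yield in Shweta Kapila, where 12.9% of all genes did. Without a covariate there were 6, where 6.98% of all genes passed. What part library size or that share has in the difference was not tested.

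Single cows also moved this median, by over 1.5 times when 1 of 4 cows was left out. It was 0.13 without high 1, 0.76 without high 3, 0.31 without low 1 and 0.78 without low 3. Without low 2 it was 0.33 and without high 2 it was 0.51. In every one of these fits it stayed above 0. In Gir the median was between −0.17 and 0.05 when 1 cow was left out, and was above 0 without low 1.

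No member was called with edgeR's quasi-likelihood test at an adjusted p under 0.05 in any comparison, and neither was any other gene (0.0% of 15420). In Shweta Kapila 6 members had an unadjusted p under 0.05, all higher with high yield, where 4.05% of all genes were on the higher and 2.93% on the lower side. They were NDUFB1, NDUFS5, UQCRH, NDUFA4, ATP5MJ and ATP5ME, and the lowest adjusted p among all members was 0.655. That count was 31 without high 3 (18.8% of all genes) and 36 without low 3 (31.7%), and between 0 and 5 when any other single library was left out. Without the 3 libraries of over 22 M, low 3 was the only low-yielding Shweta Kapila cow left, so that fit is not counted here. In Gir no member had an unadjusted p under 0.05, where 1.17% of all genes were on the higher and 0.713% on the lower side, and every adjusted p was 1. DESeq2 called no member for yield in either breed, where it called 0.00649% of all genes in Gir and 0.402% in Shweta Kapila.

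Complex I holds 7 core subunits encoded in the nucleus, which carry the flavin and iron-sulfur centres from NADH to ubiquinone, and many accessory subunits that surround them. All 7 core genes were past the filter, as were 25 accessory genes. In Gir the log2 fold change with yield was above 0 for 7 of 7 core genes (median 0.13) and for 6 of 25 accessory genes (median −0.11). In Shweta Kapila it was above 0 for 6 of 7 core genes (median 0.49) and 22 of 25 accessory genes (median 0.45). No test of core against accessory genes was made.

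Among the core genes, NDUFV1, which binds NADH and the flavin, was at 120.2, 56.2 and 38.5 CPM in high-yielding and 20.0, 30.0 and 74.9 CPM in low-yielding Shweta Kapila cows, always in the order of cows 1, 2 and 3. High 1 was the highest cow and low 3 the next, and the log2 fold change was 0.78 ± 0.47 (SE). NDUFS1, the largest iron-sulfur subunit of the same arm, was at 54.9, 72.0 and 89.0 CPM with high and 129, 91.6 and 77.9 CPM with low yield. Its highest cow was low 1 and its lowest high 1, the reverse of NDUFV1, and its log2 fold change was −0.47 ± 0.25 (unadjusted p = 0.0864). In Gir both stayed in a narrow range, 53.8 to 70.7 CPM for NDUFV1 and 66.4 to 88.5 CPM for NDUFS1. The core genes NDUFS3, NDUFS7, NDUFS8 and NDUFV2 had log2 fold changes from 0.48 to 0.82 in Shweta Kapila and from 0.04 to 0.25 in Gir.

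Among the accessory genes, NDUFB1, a small subunit of the membrane arm, had the lowest p with yield in Shweta Kapila. It was at 18.9, 13.0 and 4.22 CPM with high and 6.54, 3.72 and 5.27 CPM with low yield (log2 fold change 1.22 ± 0.50, unadjusted p = 0.0318). High 1 and high 2 were above all 3 low-yielding cows, and high 3 lay among them. In Gir the same gene was at 4.52, 2.84 and 4.06 CPM with high and 8.29, 5.86 and 3.35 CPM with low yield, a log2 fold change of −0.61 ± 0.50 with overlapping classes. NDUFS5, an accessory subunit on the outer face of the membrane arm, was at 39.6, 36.9 and 32.9 CPM in high-yielding and 17.5, 19.6 and 26.3 CPM in low-yielding Shweta Kapila cows. It was the only member whose yield classes did not overlap in this breed, where 3.51% of all genes were apart on the higher and 3.69% on the lower side. Its log2 fold change was 0.79 ± 0.35 (unadjusted p = 0.0437). NDUFB7, another membrane arm subunit, was at 65.5, 31.1 and 14.6 CPM against 7.69, 12.9 and 31.1 CPM, with the same 3 high cows as the complex I mean (log2 fold change 1.11 ± 0.54).

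In Gir the accessory gene of lowest p was NDUFB3, also of the membrane arm, at 5.50, 4.61 and 3.04 CPM with high and 6.75, 6.79 and 6.55 CPM with low yield. Every high-yielding cow was below every low-yielding one, where 5.01% of all genes were, and the log2 fold change was −0.61 ± 0.32 (unadjusted p = 0.0829). The low-yielding cows lay close together, and high 3 was the lowest. Of the other accessory genes, the log2 fold changes in Shweta Kapila ran from −0.32 for NDUFB5 to 1.08 for NDUFA11, a subunit of the membrane arm. NDUFB5, NDUFB2 and NDUFV3 were the 3 accessory genes below 0.

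Complex II was measured through its iron-sulfur subunit SDHB and its membrane anchor SDHC, which helps to bind a haem. SDHB was at 152, 80.8 and 131 CPM in high-yielding and 208, 168 and 136 CPM in low-yielding Shweta Kapila cows, with low 1 highest and high 2 lowest (log2 fold change −0.49 ± 0.26, unadjusted p = 0.0796). SDHC was at 96.6, 72.9 and 50.3 CPM against 39.8, 46.5 and 85.5 CPM, with high 1 highest and low 1 lowest (log2 fold change 0.35 ± 0.30). The yield classes overlapped for both. In Gir SDHB was at 106, 108 and 139 CPM with high and 104, 94.9 and 110.2 CPM with low yield, and SDHC at 104, 91.5 and 94.6 against 107, 98.0 and 104 CPM. The Gir log2 fold changes were 0.19 ± 0.26 for SDHB and −0.09 ± 0.30 for SDHC, with overlapping classes.

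Complex III passes electrons through the Rieske protein UQCRFS1 and cytochrome c1, CYC1. CYC1 was at 99.5, 60.3 and 30.1 CPM in high-yielding and 14.5, 19.1 and 65.3 CPM in low-yielding Shweta Kapila cows (log2 fold change 0.94 ± 0.53). UQCRFS1 was at 73.6, 46.5 and 71.6 against 102, 92.1 and 53.6 CPM (−0.37 ± 0.27). High 1 was the highest cow for CYC1 and low 1 the lowest, while low 1 was the highest cow for UQCRFS1. In Gir CYC1 was at 34.6 to 56.5 CPM and UQCRFS1 at 55.2 to 76.7 CPM, with log2 fold changes of 0.16 and −0.04. The 2 core proteins, which hold no redox centre, also differed from each other. UQCRC1 was at 181, 100.5 and 75.2 against 54.3, 69.5 and 129 CPM in Shweta Kapila (log2 fold change 0.49 ± 0.36). UQCRC2 was at 88.7, 76.7 and 86.3 against 129.8, 102 and 75.1 CPM (−0.29 ± 0.25), with low 1 as its highest cow.

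The hinge protein UQCRH, which lies next to cytochrome c1, was the only complex III gene with an unadjusted p under 0.05. In Shweta Kapila it was at 43.7, 40.1 and 16.3 CPM with high and 13.6, 14.0 and 25.0 CPM with low yield (log2 fold change 0.93 ± 0.41, unadjusted p = 0.0444). In Gir it was at 21.6, 19.8 and 9.92 against 33.5, 24.7 and 22.3 CPM (−0.65 ± 0.41, unadjusted p = 0.142). High 1 and high 2 were above the low-yielding Shweta Kapila cows and high 3 lay among them. All 3 high-yielding Gir cows were below the low-yielding ones, where 5.01% of all genes were, but by a small margin between high 1 and low 3. UQCR11, a small subunit of the membrane part, had the largest log2 fold change of all members in Shweta Kapila, 1.41 ± 0.65 (unadjusted p = 0.0518). Its levels there were 43.2, 21.3 and 7.11 CPM with high and 3.63, 6.42 and 16.9 CPM with low yield. High 1 was the highest cow and low 1 the lowest, and the classes overlapped. For the small subunits UQCR10, UQCRQ and UQCRB the log2 fold changes in Shweta Kapila were 0.68 ± 0.46, 0.64 ± 0.43 and −0.12 ± 0.23, and in Gir −0.29, −0.12 and −0.17.

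In complex IV the nuclear subunits surround a catalytic core encoded in mitochondrial DNA. NDUFA4, the member of lowest p in this complex, was at 143, 113 and 69.0 CPM in high-yielding and 69.7, 60.0 and 76.0 CPM in low-yielding Shweta Kapila cows (log2 fold change 0.66 ± 0.29, unadjusted p = 0.041). High 1 and high 2 were above all low-yielding cows, and high 3 lay between low 2 and low 1. COX5B, a zinc-binding subunit on the matrix side, was at 75.8, 43.4 and 20.8 against 20.7, 19.8 and 39.0 CPM (0.82 ± 0.43). COX5A, also on the matrix side, was at 156, 84.1 and 98.5 against 162, 119 and 114 CPM (−0.23 ± 0.25), with low 1 and high 1 as its highest cows. COX7A2L, which joins complexes III and IV in supercomplexes, was at 131, 146 and 87.4 against 99.5, 82.9 and 97.2 CPM (0.38 ± 0.21). High 1 and high 2 were its highest cows, and high 3 lay within the range of the low-yielding ones.

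In Gir the complex IV genes of lowest p were COX7A2 and COX6B1. COX7A2 was at 9.03, 13.7 and 5.57 CPM with high and 21.9, 16.7 and 13.0 CPM with low yield (log2 fold change −0.87 ± 0.48, unadjusted p = 0.0951), and the classes overlapped through high 2 and low 3. COX6B1, a subunit facing the intermembrane space, was at 13.1, 13.1 and 11.4 against 29.7, 21.2 and 13.2 CPM (−0.77 ± 0.47, unadjusted p = 0.125). Its classes did not overlap, but by a small margin between high 1, high 2 and low 3. With CPM from the total count in place of TMM, 1 member rather than 4 was apart in Gir, where with TMM 5.09% of all genes were apart on the higher and 5.01% on the lower side.

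Several complex IV subunits come as tissue isoforms, and reads of closely related copies could be shared in counting. Of the COX7A family, COX7A1, the heart and muscle isoform, was at 0.993 to 4.00 CPM over the 12 cows, COX7A2 at 5.57 to 30.4 CPM and COX7A2L at 82.8 to 146 CPM. COX6A2, the heart and muscle form of subunit VIa, was at 0.192 to 3.00 CPM and COX6A1 at 39.7 to 177 CPM. COX6A1 had the same 3 high cows as the complex as a whole, at 177, 103 and 39.9 CPM with high and 41.7, 39.7 and 127 CPM with low yield in Shweta Kapila. COX6B2, known from testis, stayed under the filter, as did COX7B2.

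Complex V consists of the F1 head, where ATP is made, and the membrane part Fo with the stalks that hold them together. In Shweta Kapila the log2 fold change with yield was above 0 for 3 of 5 F1 genes (median 0.03) and for 10 of 11 Fo and stalk genes (median 0.48). In Gir it was above 0 for 3 of 5 F1 genes (median 0.01) and 3 of 11 Fo and stalk genes (median −0.21). Of the F1 genes, ATP5F1A (subunit alpha) was at 646, 481 and 603 CPM in high-yielding and 841, 793 and 573 CPM in low-yielding Shweta Kapila cows (log2 fold change −0.35 ± 0.22), and ATP5F1B (the catalytic subunit beta) at 587, 361 and 412 against 388, 476 and 508 CPM (−0.01 ± 0.22). ATP5F1D (subunit delta, in the central stalk) was at 167, 89.9 and 31.5 against 16.8, 24.9 and 92.3 CPM (1.11 ± 0.63). ATP5F1D was highest in high 1 and lowest in low 1, and ATP5F1A highest in low 1 and lowest in high 2. ATP5F1C (subunit gamma) and ATP5F1E (subunit epsilon) had log2 fold changes of 0.03 and 0.33.

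The Fo genes of lowest p in Shweta Kapila were ATP5MJ and ATP5ME, small membrane subunits of which ATP5ME is subunit e, at the interface between neighbouring ATP synthases. ATP5MJ was at 94.3, 42.3 and 26.9 CPM with high and 28.0, 30.0 and 28.1 CPM with low yield (log2 fold change 0.93 ± 0.38, unadjusted p = 0.032). High 3 and the low-yielding cows lay close together, and high 1 stood far above high 2. ATP5ME was at 51.2, 26.0 and 9.48 against 6.56, 6.71 and 20.7 CPM (1.35 ± 0.61, unadjusted p = 0.0462), with high 1 highest and low 1 and low 2 lowest. In Gir the Fo genes of lowest p were ATP5MK, a small subunit also known as DAPIT, at 3.23, 1.65 and 1.87 against 3.98, 2.31 and 3.82 CPM (−0.59 ± 0.43), and ATP5PF, coupling factor 6 of the outer stalk, at 34.6, 26.6 and 30.8 against 43.1, 34.5 and 35.0 CPM (−0.29 ± 0.24). The classes overlapped for ATP5MK through high 1, and for ATP5PF by high 1 against low 2.

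ATP5MC1, ATP5MC2 and ATP5MC3 encode the same mature subunit c of the proton-turning ring, and their reads may be split in counting. In Shweta Kapila ATP5MC1 was at 38.6, 19.2 and 5.83 CPM with high and 3.34, 4.49 and 21.8 CPM with low yield (1.10 ± 0.72). ATP5MC2 was at 349.6, 213 and 141 against 121, 138 and 239.5 CPM (0.49 ± 0.33), and ATP5MC3 at 115, 83.0 and 46.8 against 58.8, 62.9 and 72.4 CPM (0.33 ± 0.29). High 1 was the highest cow and high 3 or low 1 the lowest for each of the 3 genes. The stalk genes ATP5PB, ATP5PD and ATP5PO had log2 fold changes of 0.20, −0.06 and 0.36 in Shweta Kapila and 0.07, 0.06 and −0.04 in Gir.

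**Figure D2:**
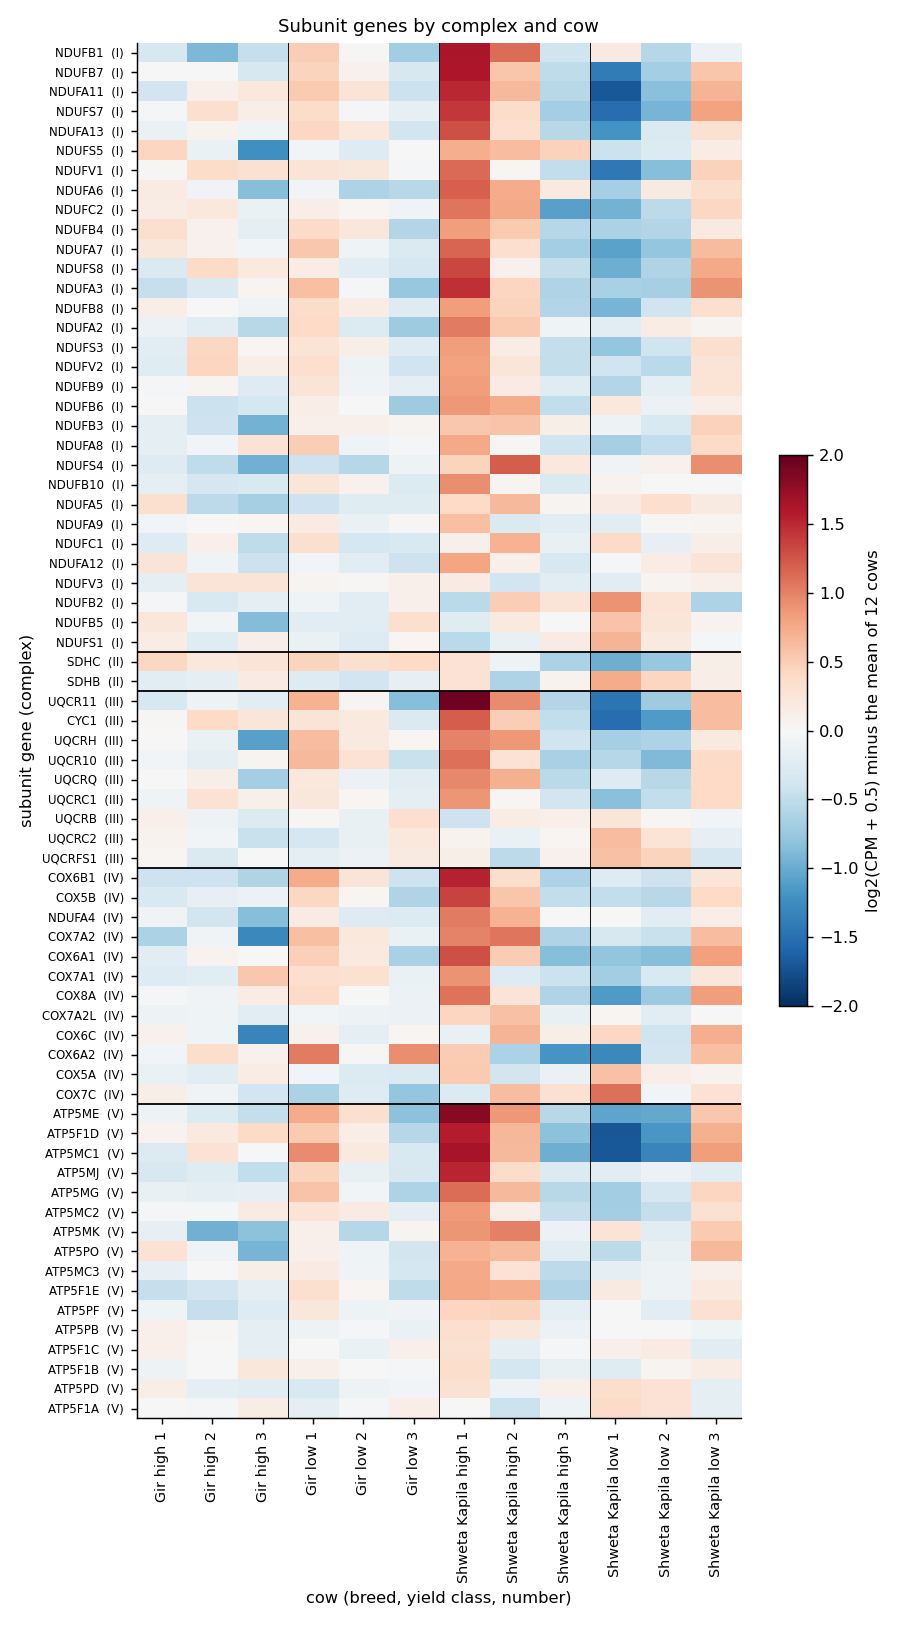
Levels of 70 of the 71 subunit genes past the filter in the 12 cows, as log2(CPM + 0.5) minus the gene's mean over all cows; rows are grouped by complex, columns by breed and yield class, and colours past 2 log2 units are drawn as 2. Most rows are highest in Shweta Kapila high 1, while a few rows of each complex, such as NDUFS1, SDHB, UQCRFS1 and ATP5F1A, are highest in Shweta Kapila low 1.

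**Figure D3:**
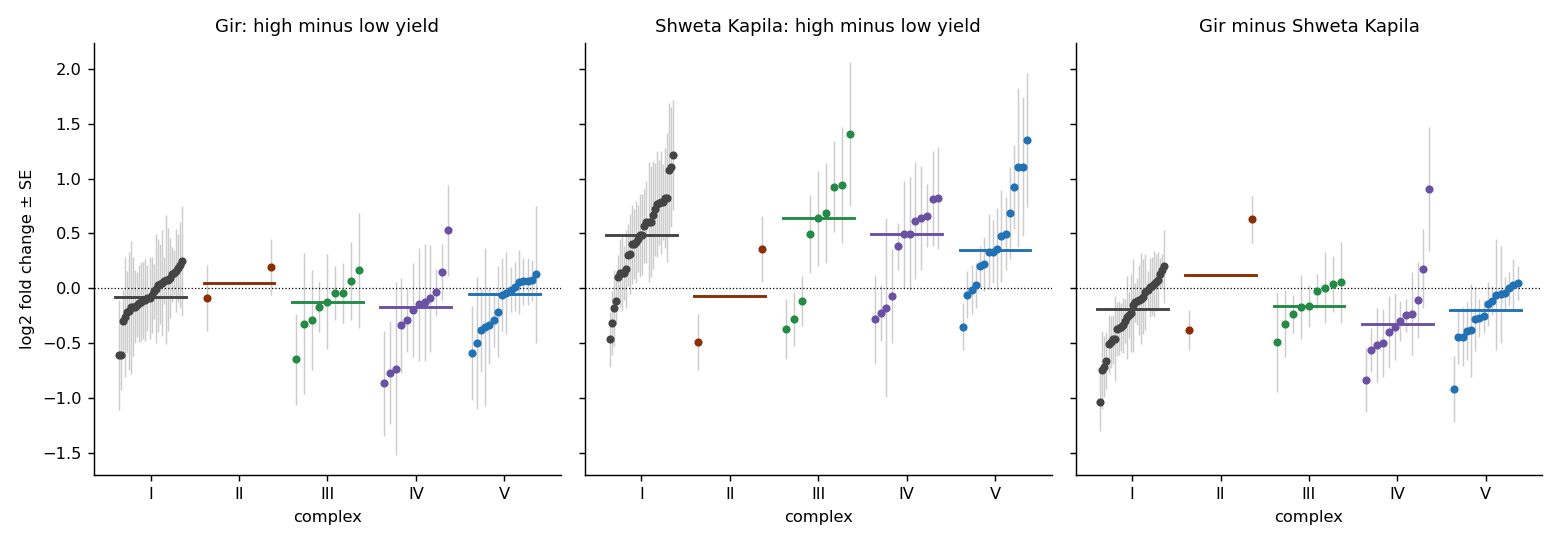
Log2 fold change ± SE of each subunit gene by complex, for yield in Gir, yield in Shweta Kapila and breed; genes are ordered by value within a complex, and the horizontal bars are medians. The Shweta Kapila values lie mostly above 0, with medians of 0.49 for complex I and 0.64 for complex III, while most breed values lie below 0.

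The 2 yield differences were also set against each other. The yield difference in Gir minus that in Shweta Kapila had a median of −0.56 over the members, beside 0.01 for all genes, and was above 0 for 14 of 71 members, where 50.9% of all genes were. By complex the median was −0.56 for I, 0.12 for II, −0.76 for III, −0.61 for IV and −0.53 for V. No member was called by edgeR's test (0.0% of all genes), the lowest adjusted p was 0.955, and 7 members had an unadjusted p under 0.05, all on the lower side, where 2.35% of all genes were (1.46% on the higher side). They were NDUFB1, NDUFB3, UQCRH, COX6B1, COX7A2, NDUFA4 and ATP5MJ, with differences of −1.83, −1.01, −1.57, −1.59, −1.51, −0.95 and −1.31 on the log2 scale. All 7 had a Gir value below 0 and a Shweta Kapila value above 0. A limma-voom fit with sample weights called 11 members for this difference, 1 on the higher and 10 on the lower side (8.57% of all genes). As the mean of both breeds, the yield difference had a median of 0.17 (−0.01 for all genes) and was above 0 for 51 of 71 members, where 48.5% of all genes were. No member reached an unadjusted p under 0.05 there, where 2.28% of all genes did on the higher and 1.85% on the lower side.

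Between the breeds, most members had lower values in Gir, with 16 of 71 above 0 on the log2 scale of Gir minus Shweta Kapila, where 45.1% of all genes were. The median was −0.23, beside −0.04 for all genes. By complex it was −0.19 for I, 0.12 for II, −0.16 for III, −0.33 for IV and −0.20 for V. No member was called by edgeR's test (0.0% of all genes). At an unadjusted p under 0.05, 6 members were lower in Gir, where 5.79% of all genes were, and SDHC was higher, where 3.78% were. The 6 were NDUFS4, NDUFA6, NDUFA5, NDUFA4, COX7C and ATP5MK. That count of 7 was 18 without Shweta Kapila high 3 (9.04% of all genes) and 12 without low 3 (26.5%). Without the 3 libraries of over 22 M it was 37, where 18.2% of all genes passed, and the median of the members was −0.54. With log2 total count as a covariate the count was 31, where 13.5% of all genes passed.

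NDUFS4, an accessory subunit of complex I whose loss causes a severe complex I deficiency, was the member of lowest p between the breeds. It was at 7.79, 6.54 and 4.60 CPM in high-yielding and 6.96, 6.20 and 8.79 CPM in low-yielding Gir cows, and at 13.0, 22.6 and 11.1 and 8.97, 10.1 and 18.5 CPM in the Shweta Kapila classes. Every Gir cow was below every Shweta Kapila cow, which held for no other member and for 0.337% of all genes (0.272% were apart on the other side), but by a small margin between Gir low 3 and Shweta Kapila low 1. The log2 fold change was −1.04 ± 0.26 (unadjusted p = 0.00186, adjusted p = 0.279 by edgeR). DESeq2 gave an adjusted p of 0.0223 and called NDUFS4 alone of the members, where it called 1.26% of all genes. Over all 23 alternative settings the adjusted p ran from 0.00729 to 0.634, and the fold change stayed below 0. The 2 highest Shweta Kapila cows for NDUFS4 were high 2 and low 3.

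NDUFA6 and NDUFA5, accessory subunits of complex I, had log2 fold changes of −0.72 ± 0.28 and −0.66 ± 0.26. NDUFA6 was at 10.1, 8.53 and 4.75 and 8.58, 5.69 and 5.95 CPM in the Gir classes (high, then low), and at 21.1, 15.3 and 10.3 and 5.46, 10.2 and 11.5 CPM in the Shweta Kapila classes. The breeds overlapped through Shweta Kapila low 1. ATP5MK of complex V was at 7.24, 7.87 and 3.35 and 4.57, 3.13 and 5.52 CPM in Shweta Kapila, with high 3 and low 2 within the Gir range (log2 fold change −0.92 ± 0.30, unadjusted p = 0.0098). NDUFA4 was at 65.9, 53.9 and 38.4 and 78.3, 58.0 and 57.4 CPM in Gir (−0.56 ± 0.21). COX7C, a small membrane subunit of complex IV, was at 3.31, 2.83 and 2.17 and 1.76, 2.43 and 1.55 CPM in Gir and 2.41, 4.88 and 3.84 and 7.00, 2.85 and 3.76 CPM in Shweta Kapila (−0.83 ± 0.29), and the breeds overlapped through Shweta Kapila high 1 and low 2. ATP5F1E, next in p within complex V, was at −0.45 ± 0.25.

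SDHC was the member higher in Gir, with the 6 Gir cows at 91.5 to 107 CPM and the Shweta Kapila cows spread from 39.8 to 96.6 CPM. The log2 fold change was 0.63 ± 0.21 (unadjusted p = 0.0121, adjusted p = 0.385). The breeds overlapped through Shweta Kapila high 1. The 3 lowest Shweta Kapila cows were the 3 libraries of over 22 M. Without Shweta Kapila low 3 SDHC was called, with a log2 fold change of 0.83 and an adjusted p of 0.0297, and 2.84% of all genes were called in that fit.

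**Figure D4:**
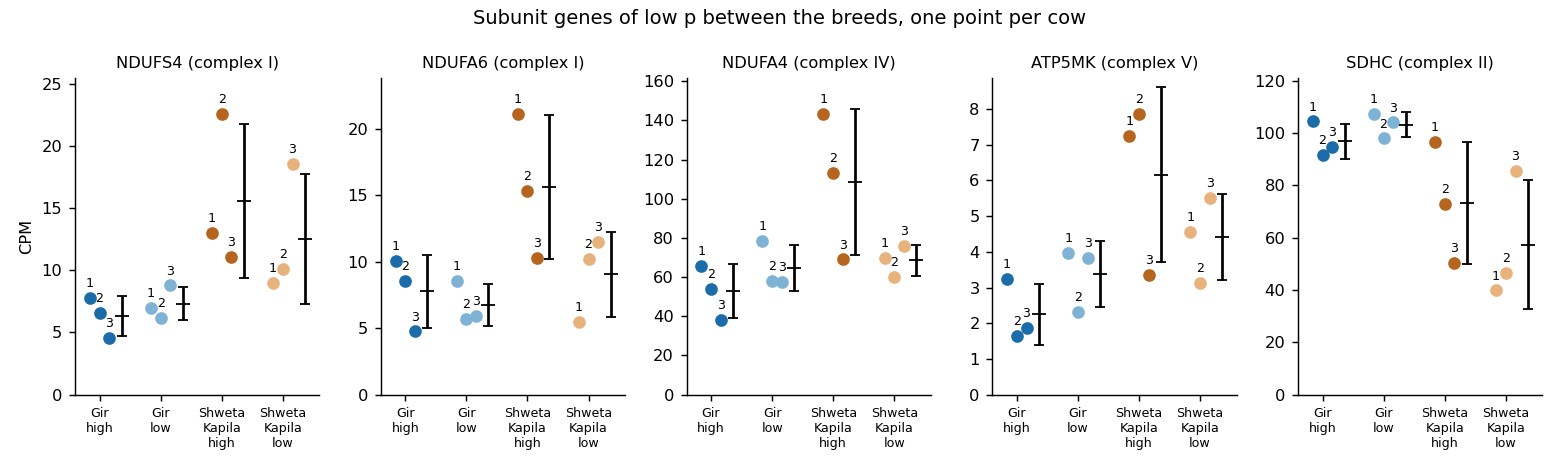
CPM of NDUFS4, NDUFA6, NDUFA4, ATP5MK and SDHC, with 1 numbered point per cow and bars for the mean ± SD of each group of 3 cows. All Gir cows lie below all Shweta Kapila cows for NDUFS4 only, and the Gir cows lie at 91.5 to 107 CPM for SDHC.

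The test of any difference among the 4 groups called no member (0.0% of all genes), with a lowest adjusted p of 0.633. NDUFS4, NDUFB1, NDUFA6, NDUFA4 and ATP5MK had an unadjusted p under 0.05, where 6.32% of all genes did. With log2 total count as a covariate 32 members did, where 13.0% of all genes did. A limma-voom fit that weights libraries by their own spread gave other counts, with weights from 0.184 for Shweta Kapila low 3 to 6.62 for Shweta Kapila low 2. It called 34 members for yield in Shweta Kapila, 31 higher and 3 lower with high yield, where 25.3% of all genes were called. The 3 lower were SDHB, UQCRFS1 and ATP5F1A. For breed it called 7 members (16.7% of all genes), for the yield difference between breeds 11 (8.57%), for yield over both breeds CYC1 and ATP5F1D (8.36%) and among the 4 groups 26 (30.4%). In Gir it called none (0.00649% of all genes).

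Shweta Kapila cows also varied more for these genes than Gir cows did, as they did for most genes. The highest cow was a median 1.79 times the lowest over the 6 Gir cows and 2.74 times over the 6 Shweta Kapila cows, beside 1.76 and 2.87 for all genes. The range was wider in Shweta Kapila for 62 of 71 members, and for 80.4% of all genes. Shweta Kapila high 1 was the highest of all 12 cows for 48 members, where it was for 19.6% of all genes, and low 1 was the highest for 10 (14.1%), where it was for 24.5% of all genes. The lowest cow was Shweta Kapila low 1 for 25 members and Gir high 3 for 18, where these were the lowest for 24.4% and 7.49% of all genes. Gir high 3 was the lowest cow for members such as NDUFS5, at 9.87 CPM, UQCRH, at 9.92 CPM, and ATP5PO, at 24.2 CPM.

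The ratio of 2 subunits of 1 complex was compared between cows. Over all 719 pairs of members within a complex, the highest ratio was a median 1.97 times the lowest in Gir and 2.86 times in Shweta Kapila, and it varied more in Shweta Kapila for 78.7% of the pairs, near the 80.4% of single genes above. The 5 pairs given here, 1 in each complex, were picked for their difference after their values were seen, so their spread is a description of these pairs only. The ratio of ATP5F1D to ATP5F1A counts varied 2.69-fold over the Gir cows and 13.0-fold over the Shweta Kapila cows. For NDUFV1 over NDUFS1 the spread was 1.68-fold and 14.1-fold, for CYC1 over UQCRFS1 it was 2.26-fold and 9.50-fold, for COX8A over COX5A 1.37-fold and 5.63-fold, and for SDHC over SDHB 1.52-fold and 4.70-fold. In each pair the ratio was lowest in Shweta Kapila low 1, with low 2 and then high 3 next. These are again the 3 libraries of over 22 M. COX8A, a small subunit of complex IV, was at 230.1, 129 and 71.2 CPM with high and 48.7, 65.0 and 193 CPM with low yield in that breed.

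**Figure D5:**
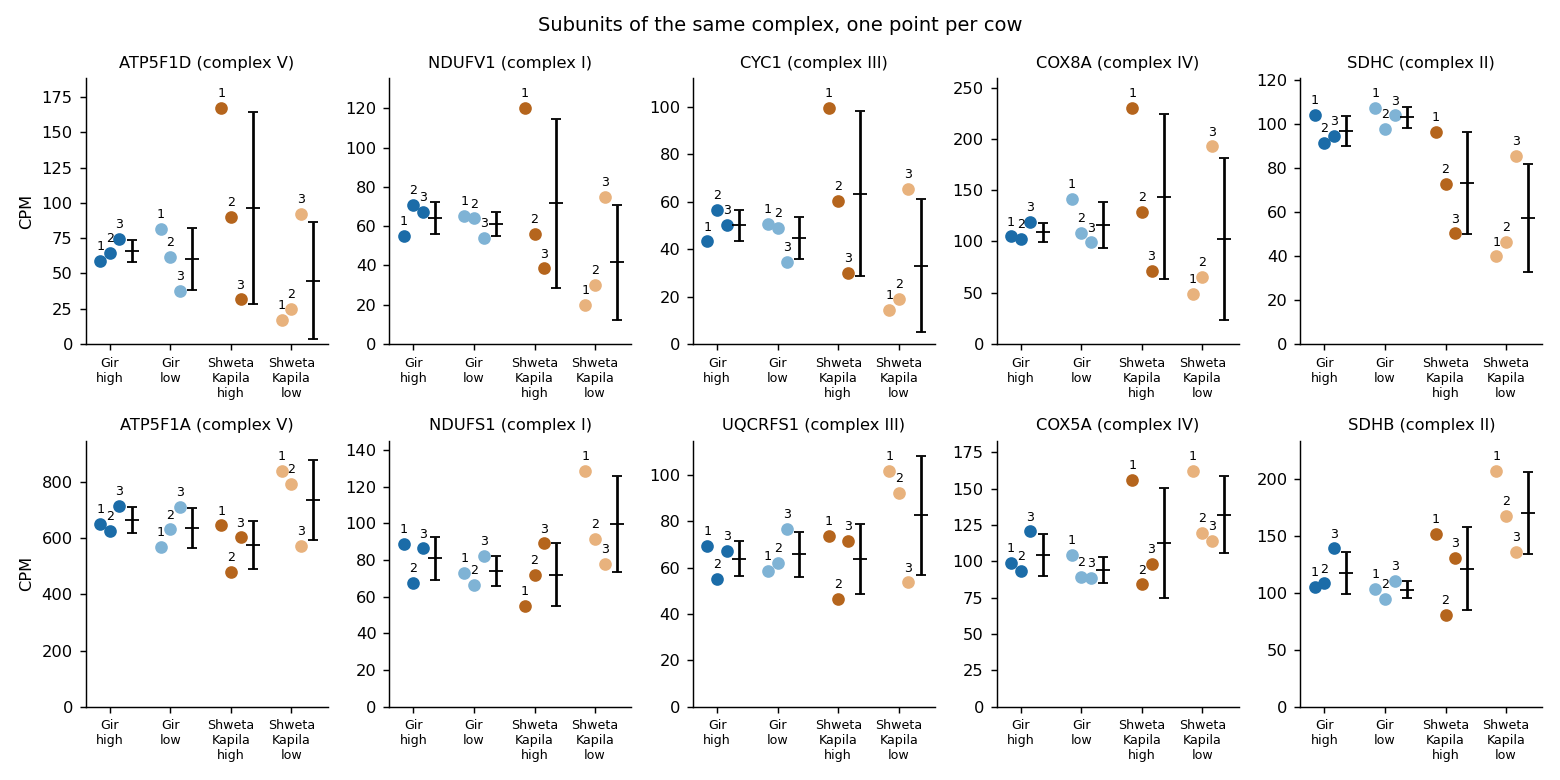
CPM of 2 subunit genes from each complex, with 1 numbered point per cow and bars for the mean ± SD of each group of 3 cows; every axis starts at 0. In the upper panels Shweta Kapila low 1 is the lowest cow, and in the lower panels it is the highest.

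Other genes of the pathway were taken from lists of assembly factors, further subunits, the inhibitor of complex V, cytochrome c and regulators. EdgeR's test called none of the 67 past the filter in any comparison. The limma-voom fit called 17 of them for yield in Shweta Kapila, 16 higher and 1 lower with high yield, or 25.4%, beside 25.3% of all genes. It called 4 for yield over both breeds, 8 for the difference, 7 for breed and 14 among the 4 groups, or 5.97%, 11.9%, 10.4% and 20.9%, beside 8.36%, 8.57%, 16.7% and 30.4% of all genes. UQCC3, SDHAF1, COX19 and ESRRA were the 4 called for yield over both breeds. With log2 total count as a covariate edgeR called UQCC3 among the 4 groups (0.402% of all genes). Assembly factors build the complexes without staying in them. For complex I 8 of 13 such genes had a log2 fold change above 0 with yield in Shweta Kapila (median 0.11), with NDUFAF3 of lowest p at 0.66 ± 0.43. For complex II it was 2 of 4 (median 0.05), with SDHAF1 at 0.78 ± 0.39. For complex III it was 5 of 6 (median 0.34), with UQCC3 at 1.35 ± 0.44 (unadjusted p = 0.00949). UQCC3, needed to build complex III, was at 26.0, 22.9 and 8.72 CPM with high and 6.11, 5.15 and 11.4 CPM with low yield, with the same 3 high cows as the complex III mean. For complex IV, further subunits included, it was 14 of 22 (median 0.22), with COX19, which serves copper delivery, at 0.89 ± 0.35 (unadjusted p = 0.0254). For complex V, its inhibitor included, it was 3 of 4 (median 0.84), with ATPAF2, a chaperone of the F1 head, at 1.09 ± 0.50 (unadjusted p = 0.0483). Each of these lists was close to 0 in Gir, with medians from −0.10 to 0.06.

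Cytochrome c itself, CYCS, which carries electrons from complex III to IV, was at 23.3, 28.5 and 15.8 CPM with high and 17.1, 20.0 and 20.0 CPM with low yield in Shweta Kapila (0.24 ± 0.33), with overlapping classes. Of the regulators of mitochondrial genes, 6 of 16 were above 0 in Shweta Kapila (median −0.24). ESRRA, a nuclear receptor that activates such genes, was at 78.6, 51.9 and 18.0 against 10.3, 12.8 and 45.2 CPM (1.12 ± 0.56, unadjusted p = 0.0681), with the same 3 high cows as the complex means. PPARGC1A, the coactivator known as a master regulator of mitochondrial biogenesis, stayed under the filter, as did COX4I2. Between the breeds, the genes of lowest p in these lists were NUBPL (−0.41 ± 0.30), SDHAF3 (−0.73 ± 0.32), UQCC1 (0.33 ± 0.17), COX11 (−0.40 ± 0.18), FMC1 (−0.35 ± 0.40), HCCS (−0.07 ± 0.19) and YY1 (−0.40 ± 0.19). Of these SDHAF3 (unadjusted p = 0.0415) and COX11 (unadjusted p = 0.0485) were under 0.05.

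Markers of blood cell types moved beside these values. In Shweta Kapila the summed level of 8 NK and cytotoxic markers was 4001, 2562 and 1390 CPM with high and 1020, 833 and 784 CPM with low yield, and 7 of the 8 were above 0 (median 1.63). For 12 T cell markers it was 5753, 4977 and 4252 against 3775, 3319 and 2570 CPM, with 10 of 12 above 0 (median 0.70). For 9 B cell markers it was 906, 921 and 790 against 789, 1325 and 3200 CPM, with 0 of 9 above 0 (median −1.02). The NK and T sums separated the yield classes in Shweta Kapila, while the complex means did not. Low 3 was the lowest Shweta Kapila cow in both sums, and among the high cows in complexes I, III, IV and V. High 3 was above every low-yielding cow in both sums, and below low 2 in the means of complexes I, IV and V. In Gir the summed level of 8 neutrophil markers was 2646, 4244 and 3547 CPM with high and 2628, 2034 and 2631 CPM with low yield, and 6 of the 8 were above 0 (median 0.42). Its classes did not overlap, but by a small margin between high 1 and low 3. All 7 monocyte markers were above 0 there (median 0.77), though their sums overlapped, at 1481, 2797 and 2518 against 1797, 1205 and 1693 CPM. Of the NK and cytotoxic markers 0 of 8 were above 0 in Gir (median −0.43), of the T cell markers 1 of 12 (−0.25) and of the B cell markers 2 of 9 (−0.09). It was 6 of 6 for erythroid (0.55), 4 of 7 for platelet (0.04), 5 of 7 for plasma cell (0.24) and 2 of 7 for eosinophil and basophil markers (−0.28). The erythroid sum was 141, 186 and 748 CPM with high and 250, 159 and 181 CPM with low yield in Gir. In Shweta Kapila 7 of the 8 neutrophil markers were above 0 with yield (median 0.56). Their sums overlapped there, at 4051, 1290 and 1818 CPM with high and 2164, 1549 and 2134 CPM with low yield. High 1 was the highest cow and high 2 the lowest. Between the breeds 0 of 8 NK and cytotoxic markers were above 0 in Gir minus Shweta Kapila (median −0.92), 2 of 12 T cell markers (median −0.38), 7 of 8 neutrophil markers (median 0.51) and 7 of 7 monocyte markers (median 0.56). So were 9 of 9 B cell markers (median 0.39), 7 of 7 platelet markers (0.46) and 5 of 6 erythroid markers (0.21). For plasma cell markers it was 0 of 7 (median −0.62), and for eosinophil and basophil markers 4 of 7 (0.03). NCR1, KLRD1 and GNLY of the NK and cytotoxic list, MS4A1 and CR2 of the B cell list, and CD163, LYZ and FCN1 of the monocyte list were not analysed. What part these markers have in the members' values was not tested.

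Ribosomal protein genes, which encode another large nuclear set of small subunits, took 2.37% to 2.99% of counts in the 3 Shweta Kapila libraries of over 22 M and 5.05% to 6.06% in the other 3. The members together took 0.361% to 0.397% and 0.483% to 0.607% of counts in these libraries, and 0.411% to 0.485% in Gir. Both shares were thus lower in the larger Shweta Kapila libraries, and this link was not tested.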

How the data were processed

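Blood RNA of 12 cows was sequenced after ribosomal RNA removal with a stranded kit, per the labels' protocols, and each library is a separate cow. The authors deposited expected counts per gene, of which 57.0% were not whole numbers (tolerance 1e-06). Trimmomatic and FastQC are named, per the submitters' processing notes. Which aligner, counter, strand setting, build and annotation were used is not given in the sources used here, so reads of near-identical or overlapping genes may be split in unknown ways. Symbols came from a RefSeq gene table (assembly NIAB-ARS_B.indTharparkar_mat_pri_1.0, names only), which matched 22754 of 26229 identifiers (86.8%).

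Expected counts were rounded and tested in R 4.3.3 with edgeR 4.0.16 (filterByExpr, minimum count 10 and total 15; TMM; robust quasi-likelihood fit with 1 mean for each of 4 groups over all 12 libraries; 2-sided; Benjamini-Hochberg over the 15420 genes tested, threshold 0.05). The common biological coefficient of variation was 0.381. Values after ± are standard errors (SE) of log2 fold changes. Log2 CPM used a prior count of 2. The 6 comparisons were yield in each breed, their mean, their difference, breed, and any difference among the 4 groups. The fitting code was checked on simulated counts that were independent between genes. That check does not measure the power or the error rate of the test in these data.

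Members and lists were chosen with earlier results of these data known, so no p-value is given over the members as a set, and counts and medians stand beside those of all genes tested. Genes named with values were every member of complexes II and III; in complexes I, IV and V the 3 of lowest p for yield in Shweta Kapila, the 2 of lowest p for yield in Gir, for breed and among the 4 groups, and the lowest-p member whose sign is opposite to its complex; and isoform families. From each pathway list these were the genes of lowest p for yield in Shweta Kapila and for breed. Other genes named with values, such as NDUFV1, COX8A, ATP5F1B, NDUFB5, NDUFA11 and ATP5PO, were chosen after their values were seen. For 1 member, counted in the totals, no values of its own are reported here. Levels per coding length, listed in the plan, were not computed, as no coding lengths were used.

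Alternatives were other scalings and tests (DESeq2 1.42.0, limma 3.58.1), no filter, total count or short identifiers as covariates, thinning, and leaving libraries out. Replicate numbers served as names, and otherwise only in a fit with the replicate number as a block and in a check of pairing by number. Tables were made in Python 3.11.15 (pandas 2.3.3, NumPy 2.4.6) and figures with matplotlib 3.10.9.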

Additional observations from a re-analysis of the deposited data

How the results depend on the processing

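With 3 cows a group and a common biological coefficient of variation of 0.381, small changes may have been missed, and power was not estimated. Depth and yield class are partly confounded in Shweta Kapila. The limma-voom fit with sample weights called 34 members for yield in Shweta Kapila (25.3% of all genes) and 2 over both breeds (8.36%). It called 11 for the difference between breeds (8.57%), 7 for breed (16.7%) and 26 among the 4 groups (30.4%). DESeq2 called 1 for breed (1.26%). The edgeR fit called 0 in each (0.0%), and the cause was not tested. Without Shweta Kapila low 3, edgeR called 1 for breed, SDHC (2.84% of all genes). The remaining 133 counts of called members under alternatives were 0, where 0% to 1.35% of all genes were called. With the share of counts on short identifiers as a covariate, the Shweta Kapila yield medians were −0.11 over all members, −0.095 for complex I, 0.0081 for III, −0.14 for IV and −0.10 for V, and the medians of the difference between breeds were 0.062 over all members, 0.064 for I, −0.098 for III, 0.054 for IV and 0.037 for V. With limma-voom the complex III median was 1.10 for yield in Shweta Kapila and −1.21 for the difference, and that of complex IV −1.11 for the difference. In the 3 Shweta Kapila libraries of over 22 M alone (chosen after seeing the data, log2 CPM, no test) the yield medians were −0.027 over all members, 0.062 for I, 0.076 for III, −0.041 for IV and −0.082 for V. In the 3 of under 22 M alone they were 0.25 for III and 0.075 for IV. Without those over 22 M, with low 3 as the only low-yielding Shweta Kapila cow left, the difference between breeds was −0.20 for complex III. These causes were not tested.

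Leaving out 1 library at a time gave 0 to 1 members called for breed, where 0% to 2.84% of all genes were called. Elsewhere it gave 0, where 0% to 0.0762% of all genes were called. Medians over all members ran from −0.17 to 0.05 for yield in Gir, 0.13 to 0.78 in Shweta Kapila, 0.02 to 0.30 over both breeds, −0.91 to −0.21 for the difference and −0.30 to −0.06 for breed. In the order of complexes I to V they ran for yield in Gir from −0.11 to 0.08, −0.01 to 0.10, −0.20 to −0.02, −0.34 to −0.03 and −0.17 to 0.02; in Shweta Kapila from 0.16 to 0.79, −0.28 to 0.066, 0.16 to 0.99, 0.069 to 0.88 and 0.13 to 0.64; for the difference from −0.87 to −0.20, −0.016 to 0.33, −1.11 to −0.31, −1.22 to −0.28 and −0.77 to −0.30; and for breed from −0.30 to 0.08, 0.06 to 0.24, −0.19 to −0.03, −0.48 to −0.11 and −0.28 to −0.04. Members whose groups do not overlap numbered 6 to 21 in Gir (16.9% to 24.4% of all genes), 1 to 30 in Shweta Kapila (9.81% to 43.5%) and 1 to 2 for breed (0.752% to 2.37%). In Shweta Kapila the number was 29 without high 3 (25.9% of all genes) and 30 without low 3 (43.5%), and 1 to 4 without any other cow. With total counts in place of TMM these were 1 in Gir (10.5% of all genes) and 3 in Shweta Kapila (6.70%), and with upper quartile scaling 2 in Gir (10.2%) and 0 for breed (0.636%). Members at an unadjusted p under 0.05 ranged over all settings from 0 to 4 in Gir, 0 to 46 in Shweta Kapila, 0 to 24 over both breeds, 0 to 39 for the difference, 6 to 37 for breed and 2 to 43 among the 4 groups. The highest counts came from limma-voom, where 8.87%, 39.9%, 30.7%, 30.1% and 47.4% of all genes passed in Gir, in Shweta Kapila, over both breeds, for the difference and among the 4 groups, and for breed from leaving out the libraries of over 22 M, where 18.2% did.

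Of the named genes, 18 values changed sign. With the short identifier share as a covariate the Shweta Kapila log2 fold change was −0.15 for SDHC, −0.015 for CYC1, −0.18 for UQCR10, 0.060 for UQCRB, −0.14 for UQCRC1, 0.043 for UQCRC2, 0.12 for UQCRFS1, −0.16 for UQCRQ, −0.054 for COX5B, −0.14 for ATP5F1D and −0.23 for NDUFAF3. Leaving out the libraries of over 22 M leaves low 3 as the only low-yielding Shweta Kapila cow. The Shweta Kapila log2 fold change was then −0.017 for SDHC, 0.14 for UQCRC2, 0.16 for UQCRFS1 and 0.063 for COX5A. Without Shweta Kapila high 1 that fold change was 0.050 for UQCRB, and the breed value was 0.0089 for HCCS. Leaving out 1 library at a time gave FMC1 a breed value of −0.52 to 0.11, the upper one without low 3.

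Same-numbered libraries of different groups did not deviate together (3 of 18 pairs with a correlation over 0.1, range −0.558 to 0.339), so no pairing by number was seen. This check cannot exclude a batch shared by number, since deviations from a group mean sum to 0 within the group. With the replicate number as a replicate block 0 members were called in each comparison, where 0% to 0.0195% of all genes were. In that fit the median over all members was −0.09 for yield in Gir, 0.45 in Shweta Kapila and −0.23 for breed.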
